A study of Mus musculus with 6 samples.

Results

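Transporters of sugars, amino acids and organic ions were described in regulatory T cells recovered from transferred mice. The set held every gene whose single annotated symbol belongs to the solute carrier families Slc1, Slc2, Slc3, Slc5, Slc6, Slc7, Slc16, Slc22, Slc36, Slc38 or Slc43, which gave 114 of 18193 genes. Where several probe sets measured a gene, the one of highest mean level was used. Of the 114 genes, 57 were above the median of all values (5.48 on the log2 scale) in at least 2 arrays and were tested, and the other 57 were above it in fewer than 2 arrays.

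The arrays were Affymetrix Mouse430_2 arrays, 2 for each of 3 populations of CD4-stained cells sorted from pooled spleen and mesenteric lymph node cells. All cells came from BALB/c hosts that lacked Rag1, animals with no T or B cells of their own. The hosts had been given wild-type natural regulatory T cells together with 500000 wild-type regulatory T cells induced in culture, and 14 treated mice were pooled at day 125. The ex-iTreg group held descendants of the culture-induced cells, marked by Thy1.1, in which the EGFP reporter of Foxp3 was off. The iTreg group held Thy1.1-positive cells that kept EGFP, and the nTreg group held EGFP-positive cells without Thy1.1. The labels used here give neither the age of the hosts nor whether both pools of a group shared mice, so every p-value covers the spread between pools.

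Solute carriers set what a T cell can take up and release. The Slc2 and Slc5 families carry glucose, other sugars and polyols, and the Slc16 family carries lactate, pyruvate and related acids together with protons. Amino acids enter through several families, among them the exchangers formed by an Slc7 light chain and the Slc3a2 heavy chain (CD98), the Slc1 and Slc38 carriers of glutamine and other neutral amino acids, and the Slc43 carriers. The Slc36 family and Slc38a9 also act at the lysosome, where amino acids control the growth kinase complex mTORC1. The Slc22 family carries organic cations, anions and zwitterions such as carnitine. Activated effector T cells are known to raise glucose and amino acid uptake, and regulatory T cells are known to rely more on fatty acid oxidation.

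Array medians lay between 5.47 and 5.49. Across probe sets, r was 0.9968 to 0.9978 for arrays of 1 group and 0.9831 to 0.991 for arrays of 2 groups. Il2ra, the interleukin-2 receptor alpha chain and a marker of regulatory T cells, averaged 3.18 lower in ex-iTreg than in iTreg pools and 3.25 lower than in nTreg pools (log2). The Foxp3 probe set read between 3.99 and 4.29 on the 6 arrays, under the filter level in each group, so it gives no check of the sort. All 9 T cell markers on the array were tested. As an alternative scale, each array was centred on the median of these 9 markers, which differed by -0.12 in ex-iTreg minus nTreg, -0.35 in ex-iTreg minus iTreg and 0.23 in iTreg minus nTreg. The middle marker was Thy1, whose allele is part of the sort, on all ex-iTreg and iTreg arrays and Cd5 on both nTreg arrays, while the median of the 9 markers' own differences was 0.11, -0.16 and 0.042 in the same comparisons. With Thy1 left out, an alternative chosen after seeing the data, the shifts were -0.0067, -0.13 and 0.12. Rescaling takes these shifts off every difference. Where rescaling to all 9 markers ended a call of a transporter gene or turned a called direction, its value is given beside the gene. Macrophage and monocyte markers moved with the iTreg group: 11 of 12 tested markers were lower in ex-iTreg than in iTreg pools, and 11 were higher in iTreg than in nTreg pools. Their summed linear level was 3331 and 3291 in ex-iTreg pools, 5292 and 5292 in iTreg pools and 2700 and 2599 in nTreg pools. The neutrophil markers summed to 6492 and 6399 in ex-iTreg pools, 9362 and 10089 in iTreg pools and 7909 and 7822 in nTreg pools. Of 4 tested erythroid markers, 3 were lower in ex-iTreg than in iTreg pools and 3 were higher in iTreg than in nTreg pools. The erythroid list sums were 544 and 476 in ex-iTreg pools, 786 and 774 in iTreg pools and 524 and 529 in nTreg pools. The CD8 T and NK cell list summed to 979 and 936 in ex-iTreg pools, 280 and 305 in iTreg pools and 379 and 347 in nTreg pools, with Ncr1 under the filter level in all groups. The higher ex-iTreg sum came from Eomes, Klrk1 and Klrd1. Cd8b1 was lowest in ex-iTreg pools, at 5.18 and 5.35 there, 5.94 and 6.10 in iTreg pools and 7.18 and 7.03 in nTreg pools. Cd8a differed by 0.00 ± 0.09 (adjusted p = 0.981) in ex-iTreg minus nTreg. It was higher in ex-iTreg than in iTreg pools, by 0.33 ± 0.09 (adjusted p = 0.025). In iTreg minus nTreg it was -0.34 ± 0.09 (adjusted p = 0.0304). Of 4 tested B cell markers, 2 were lower in ex-iTreg than in nTreg pools and 3 lower than in iTreg pools, with list sums of 1140 and 1204 in ex-iTreg pools, 1563 and 1513 in iTreg pools and 1350 and 1341 in nTreg pools. Cd79b, a chain of the B cell receptor, read 4.50 and 4.80 in ex-iTreg pools, 6.38 and 6.56 in iTreg pools and 7.79 and 7.52 in nTreg pools, and Ms4a1, which encodes CD20, read 4.31 and 4.22 in ex-iTreg pools, 4.60 and 4.63 in iTreg pools and 5.64 and 5.79 in nTreg pools. The ex-iTreg means of both and the iTreg mean of Ms4a1 were under the filter level. Ms4a1 was tested only because the nTreg arrays lay above that level, so its lower calls are not separate evidence. Jchain, also tested, was highest in iTreg pools, with 0.47 ± 0.06 (adjusted p = 0.0036) in iTreg minus nTreg. The pools of Cd22 overlapped in each comparison. Cd79a, Pax5, Ebf1 and Blk, the other B cell markers on the array, were under the filter level in all groups and were not tested. Beside these marker counts, 19% of all tested genes were lower in ex-iTreg than in nTreg pools and 21% lower than in iTreg pools. In iTreg minus nTreg, 16.4% of all tested genes were higher. Spike-in poly-A controls averaged 9.28 and 9.41 on ex-iTreg, 12.2 and 12.2 on iTreg and 10.7 and 10.8 on nTreg arrays. The part of these other cells and of the spike-in difference in the results below was not tested, and in such pools fewer cells of a type and less RNA per cell cannot be told apart.

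Values below are log2 levels of 1 probe set, and differences are in log2 units ± limma's standard error (n = 2 pools in each group). A difference was called at an adjusted p under 0.05. Levels of different genes come from different probe sets and are not set against each other. A group mean under 5.48 is near background, and the size of a difference that starts from it is not resolved.

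Transporter genes changed in both directions. In ex-iTreg minus nTreg, 12 of the 57 tested genes rose and 9 fell, which is 36.8% called against 37.4% of all 11015 tested genes. In ex-iTreg minus iTreg, 10 rose and 10 fell, which is 35.1% against 36.6% of all genes. In iTreg minus nTreg, 6 rose and 6 fell, which is 21.1% against 29.1%. The ex-iTreg arrays enter 2 of the comparisons and so do the iTreg and the nTreg arrays, so the 3 counts are not independent. The median difference of the 57 genes was 0.09 in ex-iTreg minus nTreg (0.03 over all genes), 0.04 in ex-iTreg minus iTreg (-0.02 over all genes) and 0.02 in iTreg minus nTreg (0.04 over all genes). Both pools of one group lay on one side of both pools of the other for 37 of 57 genes in ex-iTreg minus nTreg (64.9%, against 71.1% of all genes), for 31 in ex-iTreg minus iTreg (54.4%, against 72.8%) and for 32 in iTreg minus nTreg (56.1%, against 68% of all genes). When arrays were rescaled to the T cell markers, the split in ex-iTreg minus iTreg became 39 higher and 5 lower, in iTreg minus nTreg 4 higher and 15 lower, and in ex-iTreg minus nTreg 16 higher and 7 lower. Rescaled without Thy1, the splits in these comparisons were 14 higher and 8 lower, 5 higher and 8 lower, and 13 higher and 9 lower. Without iTreg pool 1, or without ex-iTreg pool 1, 6 genes rose in ex-iTreg minus iTreg, and without ex-iTreg pool 2, 6 fell.

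In all, 26 of the 57 genes were called in at least 1 comparison (45.6%, against 55.2% of all tested genes). Only 4 of them were called with a difference of at least 2-fold (7.02%, against 7.19%): Slc22a4, Slc2a3, Slc7a10 and Slc22a2. In ex-iTreg minus nTreg 1 rose and 3 fell by this rule, where 1.98% of all tested genes rose and 3.81% fell (5.79% in either direction). In ex-iTreg minus iTreg 1 rose and 2 fell, where 1.36% of all genes rose and 2.18% fell (3.54% in either direction). In iTreg minus nTreg 0 rose and 1 fell, where 0.881% of all genes rose and 1.36% fell (2.24% in either direction). The plot of all 26 shows that most differences were under 1 log2 unit.

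**Figure D1:**
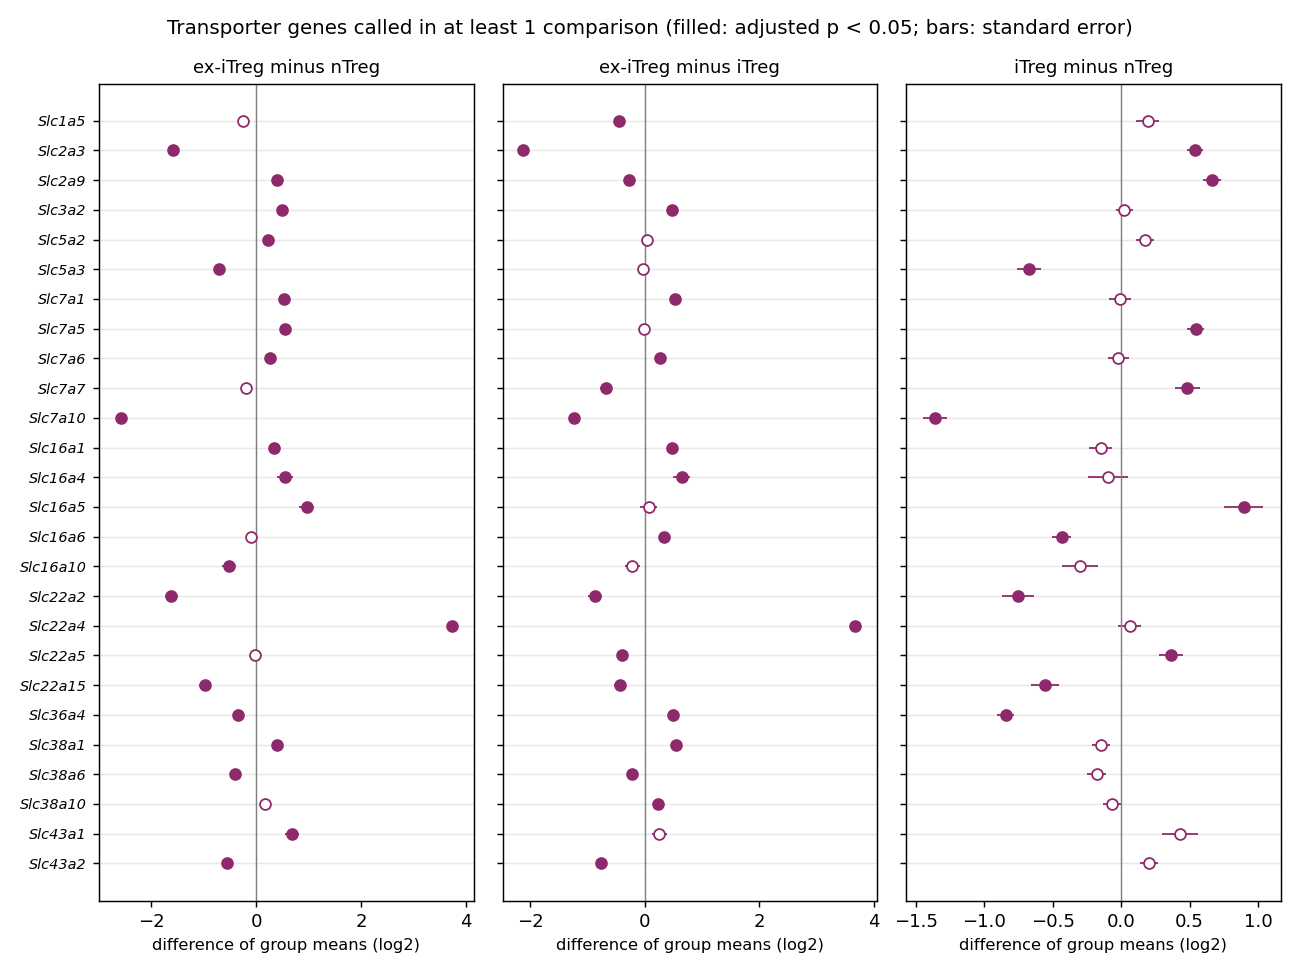
Log2 differences of the 26 transporter genes called in at least 1 comparison, with 1 panel for each of ex-iTreg minus nTreg, ex-iTreg minus iTreg and iTreg minus nTreg. Points are limma estimates with standard errors (n = 2 arrays per group), and filled points have an adjusted p under 0.05. Each panel has its own x axis. Slc22a4 stands at 3.74 and 3.68 in the 2 ex-iTreg comparisons and at 0.06 in iTreg minus nTreg, while Slc7a10 lies below 0 in all 3.

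Among the organic ion carriers, Slc22a4 was present in ex-iTreg pools and near background in both regulatory populations. Slc22a4 encodes OCTN1, a carrier of the antioxidant ergothioneine that also carries organic cations. Probe set 1417639_at on chromosome 11 read 7.74 and 7.71 in ex-iTreg pools, 3.96 and 4.14 in iTreg pools and 4.04 and 3.93 in nTreg pools. Both ex-iTreg pools were high, and the other 4 pools overlapped under the filter level. The difference was 3.74 ± 0.08 (adjusted p = 1.87e-06) in ex-iTreg minus nTreg and 3.68 ± 0.08 (adjusted p = 5.86e-06) in ex-iTreg minus iTreg, and 0.06 ± 0.08 (adjusted p = 0.618) in iTreg minus nTreg, all with limma. It was tested only because the ex-iTreg arrays lay above the filter level, and because the other groups were near background the sizes, 13.4-fold and 12.8-fold in the fit, are not resolved. Klrk1, Klrd1 and Eomes of the CD8 T and NK cell list were also highest in ex-iTreg pools. Klrk1 read 7.83 and 7.80 in ex-iTreg pools, 4.80 and 4.54 in iTreg pools and 4.58 and 4.43 in nTreg pools. Cd8b1 was lowest in ex-iTreg pools, and Cd8a overlapped between ex-iTreg and nTreg pools. The part of such cells in the Slc22a4 result was not tested.

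The 250 bases before the annotated start are printed for Slc22a4, for its upstream neighbour Pdlim4, which differed in the same direction, and for Slc22a5, a neighbouring member of the family, which did not. All 3 genes lie on the minus strand of chromosome 11. Sequences are from RefSeq, build GRCm38.p6, and run 5′ to 3′ towards the gene. Capitals mark matches to any of 6 motifs searched on both strands: CACGTG (E-box), TGATGNAA (amino acid response element core), TGANTCA (AP-1), TGTGGT (Runx), TGTTTAC (forkhead) and AGGTCA (nuclear receptor core site).
Slc22a4, chr11:54028105-54028354: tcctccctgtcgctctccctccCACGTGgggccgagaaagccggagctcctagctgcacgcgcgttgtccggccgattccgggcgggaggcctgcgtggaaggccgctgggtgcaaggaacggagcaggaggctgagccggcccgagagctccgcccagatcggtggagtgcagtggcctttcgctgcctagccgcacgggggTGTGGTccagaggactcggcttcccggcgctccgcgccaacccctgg
Pdlim4, chr11:54069018-54069267: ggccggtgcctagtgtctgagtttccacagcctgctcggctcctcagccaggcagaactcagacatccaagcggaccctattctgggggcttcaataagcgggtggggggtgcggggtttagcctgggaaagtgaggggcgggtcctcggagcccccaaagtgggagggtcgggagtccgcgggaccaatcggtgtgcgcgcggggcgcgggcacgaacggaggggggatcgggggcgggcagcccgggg
Slc22a5, chr11:53891704-53891953: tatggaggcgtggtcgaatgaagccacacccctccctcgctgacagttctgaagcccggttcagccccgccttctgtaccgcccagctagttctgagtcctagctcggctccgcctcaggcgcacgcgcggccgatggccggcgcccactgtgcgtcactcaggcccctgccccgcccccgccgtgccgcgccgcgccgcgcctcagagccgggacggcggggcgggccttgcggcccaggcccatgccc
The Slc22a4 window held CACGTG, which starts 228 bases before the start, and TGTGGT, which starts 47 bases before it. No letters of the 6 motifs were in the Pdlim4 or Slc22a5 window. A match is a description of letters: CACGTG occurs in 6.02% and TGTGGT in 14% of the 32851 windows of this length.

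Slc22a4 sits in a gene cluster, and its neighbours were looked up after their values were seen. In order along the chromosome these are Il5, Irf1, Slc22a5, Slc22a21, Slc22a4, Pdlim4, P4ha2, Csf2 and Il3. Pdlim4, a LIM-domain protein of the actin cytoskeleton, read 8.97 and 8.83 in ex-iTreg pools, 5.59 and 5.53 in iTreg pools and 4.75 and 4.72 in nTreg pools. All 3 groups were apart, with ex-iTreg highest. It differed by 4.16 ± 0.07 (adjusted p = 1.13e-06) in ex-iTreg minus nTreg, 3.34 ± 0.07 (adjusted p = 5.38e-06) in ex-iTreg minus iTreg and 0.82 ± 0.07 (adjusted p = 0.000792) in iTreg minus nTreg. Irf1, an interferon-induced transcription factor on the other side, read 11.33 and 11.32 in ex-iTreg pools, 12.35 and 12.36 in iTreg pools and 12.47 and 12.46 in nTreg pools. It was lower in both ex-iTreg pools, with a difference of -1.14 ± 0.06 (adjusted p = 3.96e-05) from nTreg and -1.03 ± 0.06 (adjusted p = 0.000109) from iTreg. Slc22a21, a carnitine carrier of the mouse, stayed under the filter level at 4.10 and 4.31 in ex-iTreg pools, 3.84 and 3.88 in iTreg pools and 3.80 and 3.85 in nTreg pools. Csf2, the cytokine GM-CSF, did not meet the filter, with 5.54 and 5.45 in ex-iTreg pools, 4.96 and 4.65 in iTreg pools and 4.66 and 4.79 in nTreg pools, and P4ha2, Il5 and Il3 were under the filter level in all groups.

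**Figure D2:**
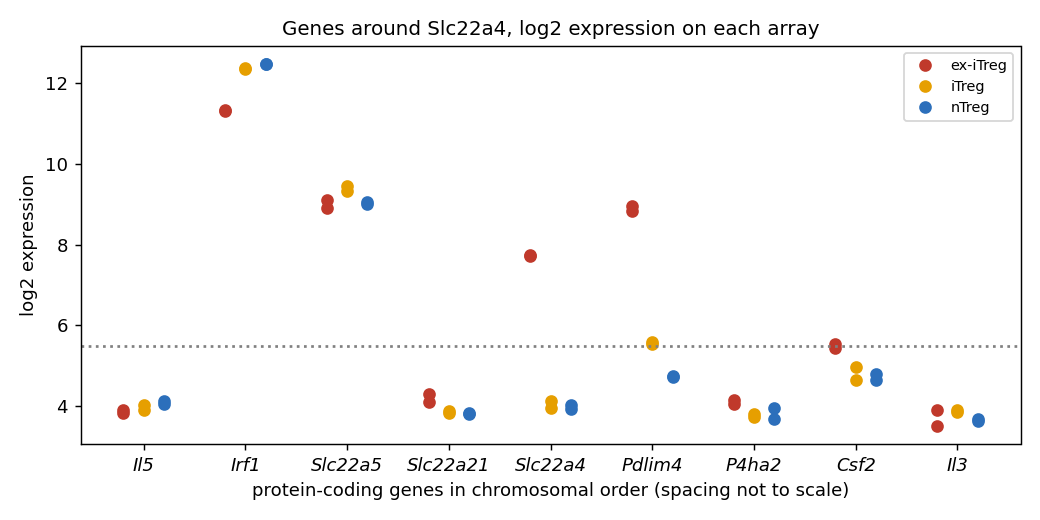
Log2 levels of Slc22a4 and neighbouring genes on chromosome 11, in gene order with spacing not to scale. Points are single arrays, and the dotted line is the filter level of 5.48. Slc22a4 and Pdlim4 are high in both ex-iTreg pools, while Irf1 is lower there than in iTreg and nTreg pools.

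Slc22a5, which encodes the sodium-dependent carnitine carrier OCTN2, was highest in iTreg pools. It read 9.10 and 8.90 in ex-iTreg pools, 9.33 and 9.45 in iTreg pools and 9.06 and 9.0 in nTreg pools. The ex-iTreg and nTreg pools overlapped. The iTreg pools were above both, by 0.36 ± 0.09 (adjusted p = 0.0269) over nTreg, with -0.39 ± 0.09 (adjusted p = 0.0166) in ex-iTreg minus iTreg. Neither call was steady: the iTreg minus nTreg call was lost without either iTreg or either nTreg pool (adjusted p between 0.0583 and 0.131), and the ex-iTreg minus iTreg call without iTreg pool 2 or ex-iTreg pool 2 (adjusted p between 0.0882 and 0.0927). After rescaling to the T cell markers the differences were 0.14 (adjusted p = 0.349) and -0.04 (adjusted p = 0.769). The second tested probe set of Slc22a5 was called in the same directions, with 0.43 (adjusted p = 0.0408) and -0.68 (adjusted p = 0.00647). Its ex-iTreg and nTreg means were under the filter level.

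The other 2 called Slc22 genes were highest in nTreg pools. Slc22a2, the organic cation carrier OCT2, known best from kidney, read 5.38 and 5.18 in ex-iTreg pools, 6.18 and 6.11 in iTreg pools and 7.04 and 6.75 in nTreg pools with probe set 1419117_at. The groups were in the order ex-iTreg, iTreg, nTreg from low to high with no overlap, and the ex-iTreg mean was under the filter level. Its differences were -1.62 ± 0.12 (adjusted p = 0.000152) in ex-iTreg minus nTreg, -0.87 ± 0.12 (adjusted p = 0.00238) in ex-iTreg minus iTreg and -0.75 ± 0.12 (adjusted p = 0.00573) in iTreg minus nTreg. Igf2r, the cation-independent mannose 6-phosphate receptor, lies near Slc22a2 on chromosome 17 and had the same order, at 8.73 and 8.71 in ex-iTreg pools, 9.23 and 9.14 in iTreg pools and 9.63 and 9.57 in nTreg pools. Its ex-iTreg level differed by -0.88 ± 0.07 (adjusted p = 0.000178) from nTreg and by -0.46 ± 0.07 (adjusted p = 0.00298) from iTreg, the second being -0.11 (adjusted p = 0.401) after rescaling to the T cell markers. Agpat4, an acyltransferase of phospholipid synthesis on the other side, differed by -1.15 ± 0.13 (adjusted p = 0.000959) and -0.81 ± 0.13 (adjusted p = 0.00454) in these comparisons. Map3k4, a kinase gene between Agpat4 and Slc22a2, did not have this order, with -0.10 ± 0.09 (adjusted p = 0.428) from nTreg and 0.21 ± 0.09 (adjusted p = 0.117) from iTreg, and Plg was under the filter level in all groups. These neighbours were looked up after their values were seen. The B cell markers Cd79b and Ms4a1 and the CD8 chain Cd8b1 had the same order of groups as Slc22a2. The B cell marker Jchain and the CD8 chain Cd8a did not, and the pools of Cd22 overlapped. Cd79a, Pax5, Ebf1 and Blk of the B cell list were under the filter level in all groups. The part of these markers in the result was not tested.

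Slc22a15 read 7.59 and 7.38 in ex-iTreg pools, 7.84 and 7.98 in iTreg pools and 8.55 and 8.39 in nTreg pools, again in the order ex-iTreg, iTreg, nTreg from low to high. Cd79b, Ms4a1 and Cd8b1 also had this order, while Jchain and Cd8a did not and Cd22 overlapped (their part was not tested). The remaining B cell markers on the array were under the filter level in all groups. Against nTreg pools Slc22a15 fell by 0.98 ± 0.10 in ex-iTreg pools (adjusted p = 0.000713). Its smaller differences were -0.43 ± 0.10 (adjusted p = 0.0204) in ex-iTreg minus iTreg and -0.56 ± 0.10 (adjusted p = 0.0107) in iTreg minus nTreg. The first was lost without iTreg pool 2 or ex-iTreg pool 2 (adjusted p between 0.105 and 0.113) and after rescaling to the T cell markers (-0.07, adjusted p = 0.579), and the second without iTreg pool 1 (adjusted p = 0.0582). The second tested probe set of Slc22a15 gave -0.67 (adjusted p = 0.00904) in ex-iTreg minus nTreg and -0.45 (adjusted p = 0.0438) in iTreg minus nTreg. In ex-iTreg minus iTreg that probe set was not called (-0.21, adjusted p = 0.25). Of the 21 Slc22 genes, 10 were tested. The 6 of these that were called in no comparison were Slc22a6, Slc22a12, Slc22a13, Slc22a17, Slc22a18 and Slc22a26.

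Among the sugar carriers, Slc2a3 fell in ex-iTreg pools, while Slc2a1 was not called by its chosen probe set. Slc2a3 encodes GLUT3, a glucose carrier of high affinity found in neurons and leukocytes. Its probe set 1437052_s_at on chromosome 6 read 9.93 and 9.97 in ex-iTreg pools, 12.08 and 12.06 in iTreg pools and 11.53 and 11.54 in nTreg pools. No pools overlapped, with ex-iTreg lowest and iTreg highest. The difference was -1.58 ± 0.06 (adjusted p = 1.19e-05) in ex-iTreg minus nTreg and -2.12 ± 0.06 (adjusted p = 9.49e-06) in ex-iTreg minus iTreg, which are 3.0-fold and 4.36-fold lower levels. In iTreg minus nTreg it was 0.54 ± 0.06 (adjusted p = 0.00192), and 0.31 (adjusted p = 0.0365) after rescaling to the T cell markers. A second tested probe set of Slc2a3 gave -1.58, -2.07 and 0.49 in these comparisons. Of the tested neighbours of Slc2a3, Gdf3, Foxj2 and Necap1 were called in no comparison. Apobec1 went the other way from Slc2a3, with 0.29 ± 0.09 (adjusted p = 0.0409) in ex-iTreg minus iTreg and -0.44 ± 0.09 (adjusted p = 0.014) in iTreg minus nTreg. The summed neutrophil, macrophage and erythroid markers given above were also highest in iTreg pools. Their part in the Slc2a3 result was not tested.

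Slc2a1, the basal glucose carrier GLUT1, read 10.45 and 10.47 in ex-iTreg pools, 10.61 and 10.65 in iTreg pools and 10.45 and 10.43 in nTreg pools. All 6 pools lay within a narrow range, with iTreg slightly above the others. Its differences were 0.02 ± 0.06 (adjusted p = 0.826), -0.17 ± 0.06 (adjusted p = 0.0676) and 0.19 ± 0.06 (adjusted p = 0.0576) in ex-iTreg minus nTreg, ex-iTreg minus iTreg and iTreg minus nTreg, and none was called. Of its 2 other tested probe sets, 1 fell in ex-iTreg minus iTreg, by 0.31 (adjusted p = 0.0312). The chosen one was 0.18 (adjusted p = 0.149) there after rescaling to the T cell markers, the opposite direction. Slc2a9, which carries urate, read 7.44 and 7.40 in ex-iTreg pools, 7.74 and 7.64 in iTreg pools and 7.03 and 7.02 in nTreg pools. It rose in ex-iTreg minus nTreg by 0.39 ± 0.07 (adjusted p = 0.00527) and in iTreg minus nTreg by 0.66 ± 0.07 (adjusted p = 0.00128), but another probe set of the gene fell in the second, by 0.56 (adjusted p = 0.0212), so the direction is uncertain. Its call in ex-iTreg minus iTreg, -0.27 ± 0.07 (adjusted p = 0.022), turned to 0.081 (adjusted p = 0.54) after rescaling to the T cell markers and was lost without iTreg pool 1 or either ex-iTreg pool (adjusted p between 0.0798 and 0.116). The insulin-responsive carrier Slc2a4, the fructose carrier Slc2a5, Slc2a6 and Slc2a8 were tested and not called.

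Of the 11 Slc5 genes, 4 were tested. Slc5a3, a sodium-coupled carrier of the osmolyte myo-inositol, read 8.27 and 8.41 in ex-iTreg pools, 8.44 and 8.31 in iTreg pools and 9.11 and 8.98 in nTreg pools. The ex-iTreg and iTreg pools overlapped, and both lay below the nTreg pools. It fell in ex-iTreg minus nTreg by 0.71 ± 0.09 (adjusted p = 0.00136) and in iTreg minus nTreg by 0.67 ± 0.09 (adjusted p = 0.00303). Its second tested probe set gave -0.78 (adjusted p = 0.00396) in ex-iTreg minus nTreg and -0.26 (adjusted p = 0.164) in iTreg minus nTreg, and was also lower in ex-iTreg than in iTreg pools (-0.52, adjusted p = 0.0191). Slc5a2, the kidney glucose carrier SGLT2, had 6.17 and 6.20 in ex-iTreg pools, 6.13 and 6.16 in iTreg pools and 5.93 and 6.02 in nTreg pools, and its call in ex-iTreg minus nTreg, 0.22 ± 0.07 (adjusted p = 0.0422), was lost without any 1 of the 6 arrays (adjusted p between 0.0517 and 0.174).

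**Figure D3:**
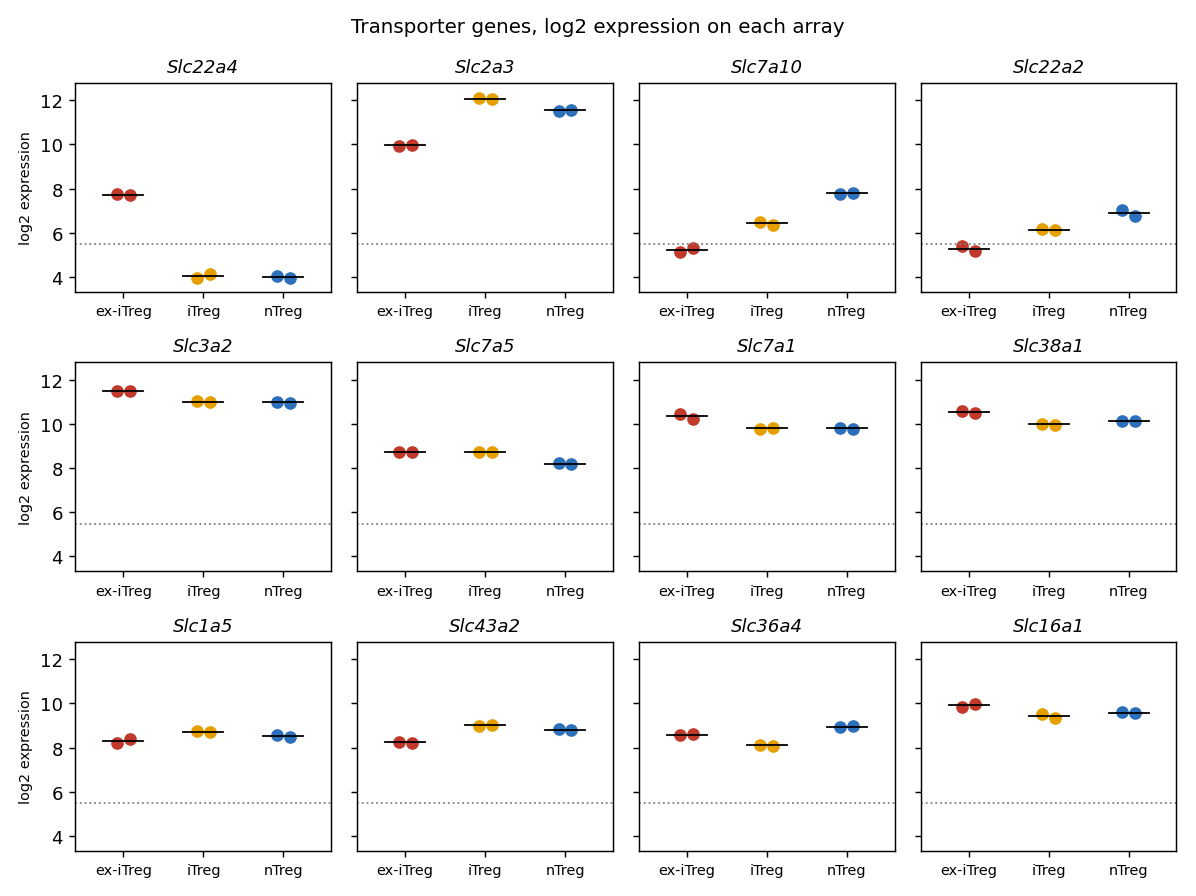
Log2 levels of 12 transporter genes on each array. Points are single arrays, black bars are group means of 2 arrays, and the dotted line marks the filter level of 5.48. Slc3a2, Slc7a1 and Slc38a1 are highest in both ex-iTreg pools, Slc7a10 and Slc22a2 are highest in nTreg pools, and Slc2a3 and Slc43a2 are lowest in ex-iTreg pools.

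Among the carriers of large neutral and cationic amino acids, Slc3a2, Slc7a5 and Slc7a1 rose in ex-iTreg minus nTreg, while Slc43a2 fell. The fall of Slc16a10, described with its family below, was not called without nTreg pool 1 or ex-iTreg pool 1. Slc3a2, the CD98 heavy chain that brings Slc7 light chains to the surface, read 11.49 and 11.46 in ex-iTreg pools, 11.01 and 11.0 in iTreg pools and 11.01 and 10.95 in nTreg pools. Both ex-iTreg pools lay above all others, and the iTreg and nTreg pools overlapped. It rose by 0.49 ± 0.06 (adjusted p = 0.00146) over nTreg and by 0.47 ± 0.06 (adjusted p = 0.00216) over iTreg, which are 1.41-fold and 1.39-fold higher levels. Slc7a5, the LAT1 light chain that exchanges leucine and other large neutral amino acids, had another pattern, with 8.74 and 8.72 in ex-iTreg pools, 8.73 and 8.74 in iTreg pools and 8.22 and 8.16 in nTreg pools. Here ex-iTreg and iTreg pools overlapped and both lay above nTreg pools. It rose by 0.54 ± 0.06 (adjusted p = 0.000987) in ex-iTreg minus nTreg and by 0.54 ± 0.06 (adjusted p = 0.00192) in iTreg minus nTreg, with 0.00 ± 0.06 (adjusted p = 0.97) in ex-iTreg minus iTreg. Slc7a1, the arginine and lysine carrier CAT1, read 10.42 and 10.24 in ex-iTreg pools, 9.77 and 9.82 in iTreg pools and 9.82 and 9.78 in nTreg pools. Like Slc3a2 it was highest in both ex-iTreg pools, by 0.53 ± 0.08 (adjusted p = 0.00311) over nTreg and 0.54 ± 0.08 (adjusted p = 0.00338) over iTreg, and -0.01 ± 0.08 in iTreg minus nTreg was not called. The second tested probe set of Slc7a1 also rose, by 0.31 (adjusted p = 0.01) over nTreg and 0.49 (adjusted p = 0.00181) over iTreg. On the T cell marker scale the ex-iTreg minus iTreg differences of Slc3a2 and Slc7a1 were 0.82 and 0.89.

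The 2 y+L light chains, which exchange cationic for neutral amino acids with CD98, moved in opposite directions in ex-iTreg minus iTreg. Slc7a6 read 8.59 and 8.63 in ex-iTreg pools, 8.31 and 8.36 in iTreg pools and 8.44 and 8.28 in nTreg pools. It was 0.26 ± 0.08 (adjusted p = 0.0418) in ex-iTreg minus nTreg and 0.28 ± 0.08 (adjusted p = 0.032) in ex-iTreg minus iTreg. The first call was lost without 5 of the 6 arrays, all but nTreg pool 1 (adjusted p between 0.0663 and 0.175), and the second without either iTreg or either ex-iTreg pool (adjusted p between 0.0889 and 0.147), and its second tested probe set was called in neither. Slc7a7, which macrophages express, read 5.26 and 5.29 in ex-iTreg pools, 5.97 and 5.94 in iTreg pools and 5.35 and 5.59 in nTreg pools. The iTreg pools were highest, and the ex-iTreg and nTreg pools lay near the filter level. It fell in ex-iTreg minus iTreg by 0.68 ± 0.09 (adjusted p = 0.00233) and rose in iTreg minus nTreg by 0.48 ± 0.09 (adjusted p = 0.0113). That second call was lost without either iTreg pool (adjusted p between 0.0518 and 0.0569) and after rescaling to the T cell markers (0.26, adjusted p = 0.104). The macrophage markers were likewise highest in iTreg pools, and their part in the Slc7a7 result was not tested.

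Slc7a10 separated the 3 populations most widely among the amino acid carriers. It encodes Asc-1, a CD98-linked exchanger of small neutral amino acids such as serine, glycine and alanine, known from brain and adipose tissue. Probe set 1421093_at on chromosome 7 read 5.10 and 5.30 in ex-iTreg pools, 6.49 and 6.37 in iTreg pools and 7.77 and 7.81 in nTreg pools. The order from low to high was ex-iTreg, iTreg, nTreg with no overlap, and the ex-iTreg mean was under the filter level. The differences were -2.59 ± 0.09 (adjusted p = 7.75e-06) in ex-iTreg minus nTreg, -1.23 ± 0.09 (adjusted p = 0.000249) in ex-iTreg minus iTreg and -1.36 ± 0.09 (adjusted p = 0.000291) in iTreg minus nTreg. Cd79b, Ms4a1 and Cd8b1 were in the same order, while Jchain and Cd8a were not and Cd22 overlapped. The remaining B cell markers on the array were under the filter level in all groups. The part of these markers in the Slc7a10 result was not tested. Of the tested neighbours of Slc7a10, Cebpa, Cebpg and Gpatch1 were not called in ex-iTreg minus nTreg, and Pepd rose by 0.23 ± 0.06 (adjusted p = 0.0294). In iTreg minus nTreg Cebpa fell by 0.50 ± 0.11 (adjusted p = 0.0186) and Pepd rose by 0.31 ± 0.06 (adjusted p = 0.0142). The cystine carrier Slc7a11 and the LAT2 light chain Slc7a8 were under the filter level, with 4.51 and 4.39 in ex-iTreg pools, 4.52 and 4.34 in iTreg pools and 4.30 and 4.53 in nTreg pools for Slc7a11.

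Carriers of glutamine and other neutral amino acids also split. Slc38a1, the sodium-coupled glutamine carrier SNAT1, read 10.57 and 10.50 in ex-iTreg pools, 10.01 and 9.96 in iTreg pools and 10.12 and 10.14 in nTreg pools. Both ex-iTreg pools were above the rest, by 0.40 ± 0.06 (adjusted p = 0.00394) over nTreg and 0.55 ± 0.06 (adjusted p = 0.00137) over iTreg. Its second tested probe set was not called, with -0.03 and 0.19. Slc1a5, the glutamine exchanger ASCT2, was lower in ex-iTreg than in iTreg pools, with 8.20 and 8.37 in ex-iTreg pools, 8.75 and 8.69 in iTreg pools and 8.58 and 8.47 in nTreg pools. The difference of -0.44 ± 0.08 (adjusted p = 0.00877) was lost without iTreg pool 1 or ex-iTreg pool 1 (adjusted p between 0.0503 and 0.0554) and was -0.09 (adjusted p = 0.516) after rescaling to the T cell markers. The second probe set of Slc1a5 gave 0.18 and was not called. Slc38a2 (SNAT2), which amino acid starvation is known to induce, had 11.31 and 11.27 in ex-iTreg pools, 11.24 and 11.24 in iTreg pools and 11.14 and 11.06 in nTreg pools. It was not called, with 0.20 ± 0.06 (adjusted p = 0.0555) in ex-iTreg minus nTreg. Slc1a4, the serine and alanine exchanger ASCT1, passed the filter only through the ex-iTreg pools, at 5.72 and 5.54 in ex-iTreg pools, 5.18 and 5.45 in iTreg pools and 5.21 and 5.44 in nTreg pools, and was not called, with 0.32 ± 0.13 in ex-iTreg minus iTreg.

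Slc38a6 and Slc38a10 are less well described members of the same family. Slc38a6 read 7.88 and 7.88 in ex-iTreg pools, 8.09 and 8.12 in iTreg pools and 8.34 and 8.23 in nTreg pools, and fell in ex-iTreg minus nTreg by 0.40 ± 0.07 (adjusted p = 0.00501), which was -0.28 (adjusted p = 0.0539) after rescaling to the T cell markers. Its ex-iTreg minus iTreg call of -0.23 ± 0.07 (adjusted p = 0.0419) was lost without either iTreg or either ex-iTreg pool (adjusted p between 0.116 and 0.157), and turned to 0.13 (adjusted p = 0.315) after rescaling. The second tested probe set of Slc38a6 was called lower in both comparisons, with -0.34 (adjusted p = 0.0266) and -0.51 (adjusted p = 0.00659). The ex-iTreg and nTreg means of that probe set were under the filter level. Slc38a10 read 10.03 and 9.93 in ex-iTreg pools, 9.75 and 9.75 in iTreg pools and 9.86 and 9.77 in nTreg pools. Its call of 0.23 ± 0.07 (adjusted p = 0.0428) in ex-iTreg minus iTreg was lost in the same 4 fits (adjusted p between 0.0854 and 0.206), and 2 of its 5 other tested probe sets fell, by 0.31 and 0.32.

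At the lysosome, Slc36a4 changed, and Slc38a9 and Slc36a1 were not called by their chosen probe sets. Slc36a4 (PAT4), a carrier of proline and tryptophan, read 8.58 and 8.60 in ex-iTreg pools, 8.12 and 8.08 in iTreg pools and 8.93 and 8.96 in nTreg pools. No groups overlapped, with iTreg lowest and nTreg highest. It fell in iTreg minus nTreg by 0.84 ± 0.06 (adjusted p = 0.000402) and rose in ex-iTreg minus iTreg by 0.49 ± 0.06 (adjusted p = 0.00181). In ex-iTreg minus nTreg it was -0.35 ± 0.06 (adjusted p = 0.00559), which was -0.23 (adjusted p = 0.111) after rescaling to the T cell markers. Slc38a9, the lysosomal arginine sensor that acts on mTORC1, had 7.85 and 7.84 in ex-iTreg pools, 7.79 and 7.71 in iTreg pools and 7.85 and 7.70 in nTreg pools, and its groups overlapped in 2 of the 3 comparisons. Of its 6 other tested probe sets, 2 rose in ex-iTreg minus nTreg, by 0.33 (adjusted p = 0.0118) and 0.25 (adjusted p = 0.0458), and 2 rose in ex-iTreg minus iTreg, by 0.22 (adjusted p = 0.0463) and 0.32 (adjusted p = 0.0342). Slc36a1 (PAT1) had 7.64 and 7.83 in ex-iTreg pools, 7.54 and 7.61 in iTreg pools and 7.51 and 7.61 in nTreg pools, with 0.18 ± 0.09 (adjusted p = 0.165) in ex-iTreg minus nTreg.

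The 3 Slc43 genes were all tested. Slc43a2, the LAT4 carrier that lets leucine, phenylalanine and methionine leave or enter without sodium, read 8.25 and 8.21 in ex-iTreg pools, 8.96 and 9.04 in iTreg pools and 8.82 and 8.77 in nTreg pools. The ex-iTreg pools were lowest. It fell by 0.56 ± 0.07 against nTreg (adjusted p = 0.00106) and by 0.77 ± 0.07 against iTreg (adjusted p = 0.000457). Its second tested probe set gave -0.42 (adjusted p = 0.0515) and -0.46 (adjusted p = 0.0361). Slc43a1 (LAT3), a carrier of the same amino acids, read 6.40 and 6.60 in ex-iTreg pools, 6.07 and 6.43 in iTreg pools and 5.83 and 5.82 in nTreg pools. It rose in ex-iTreg minus nTreg by 0.68 ± 0.13 (adjusted p = 0.00855), a call lost without ex-iTreg pool 2 (0.58, adjusted p = 0.0575). Slc43a3, a nucleobase carrier, had overlapping groups at 7.29 and 7.40 in ex-iTreg pools, 7.37 and 7.21 in iTreg pools and 7.67 and 7.30 in nTreg pools.

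None of the 6 tested Slc6 genes was called in any comparison by its chosen probe set. They are sodium- and chloride-coupled carriers of transmitters, taurine, creatine and amino acids. Slc6a6, the taurine carrier, had 10.11 and 10.01 in ex-iTreg pools, 10.23 and 10.16 in iTreg pools and 10.07 and 10.12 in nTreg pools. Its largest difference was -0.13 ± 0.07 (adjusted p = 0.182) in ex-iTreg minus iTreg, which was 0.22 (adjusted p = 0.105) after rescaling to the T cell markers. Of its 2 other tested probe sets, 1 fell in this comparison, with -0.52 (adjusted p = 0.00814). Slc6a8, the creatine carrier, Slc6a9, a glycine carrier, Slc6a2, Slc6a7 and Slc6a17 were likewise not called.

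Among the monocarboxylate carriers, Slc16a1 was highest in ex-iTreg pools. It encodes MCT1, which moves lactate, pyruvate and ketone bodies with protons. The levels were 9.85 and 9.96 in ex-iTreg pools, 9.51 and 9.34 in iTreg pools and 9.60 and 9.54 in nTreg pools. It rose by 0.48 ± 0.08 (adjusted p = 0.00637) over iTreg. Against nTreg the difference was 0.33 ± 0.08 (adjusted p = 0.0241), a call lost without either nTreg or either ex-iTreg pool (adjusted p between 0.054 and 0.133). Slc16a3, the lactate exporter MCT4 of glycolytic cells, was under the filter level at 4.86 and 4.57 in ex-iTreg pools, 4.85 and 4.81 in iTreg pools and 5.19 and 4.73 in nTreg pools.

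Slc16a5 (MCT6) read 6.46 and 6.02 in ex-iTreg pools, 6.12 and 6.22 in iTreg pools and 5.22 and 5.33 in nTreg pools. Its ex-iTreg and iTreg pools overlapped above the nTreg pools, whose mean was under the filter level. It rose by 0.97 ± 0.14 (adjusted p = 0.00297) in ex-iTreg minus nTreg and by 0.90 ± 0.14 (adjusted p = 0.00636) in iTreg minus nTreg. Its other probe set was not tested, and the mean of both did not pass the filter. Slc16a6, a carrier of ketone bodies, had its lowest values in iTreg pools, with 9.40 and 9.37 in ex-iTreg pools, 9.0 and 9.11 in iTreg pools and 9.51 and 9.46 in nTreg pools. It fell in iTreg minus nTreg by 0.43 ± 0.07 (adjusted p = 0.00651). The difference of 0.33 ± 0.07 (adjusted p = 0.0117) in ex-iTreg minus iTreg was lost without iTreg pool 1 or either ex-iTreg pool (adjusted p between 0.057 and 0.0698). Slc16a4 read 6.19 and 5.89 in ex-iTreg pools, 5.45 and 5.34 in iTreg pools and 5.67 and 5.31 in nTreg pools and was called at 0.55 ± 0.15 (adjusted p = 0.0284) in ex-iTreg minus nTreg and 0.65 ± 0.15 (adjusted p = 0.0161) in ex-iTreg minus iTreg. These calls were lost without nTreg pool 2 or ex-iTreg pool 1 (adjusted p between 0.108 and 0.146), and without either iTreg pool or ex-iTreg pool 1 (adjusted p between 0.0512 and 0.0873). Slc16a10, the TAT1 carrier of aromatic amino acids, read 5.37 and 5.74 in ex-iTreg pools, 5.82 and 5.72 in iTreg pools and 6.17 and 5.98 in nTreg pools. Its call of -0.51 ± 0.13 (adjusted p = 0.0261) in ex-iTreg minus nTreg was lost without nTreg pool 1 or ex-iTreg pool 1 (adjusted p between 0.106 and 0.11), and its second tested probe set was not called.

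The remaining 31 tested genes were called in no comparison. Their differences lay between -0.17 and 0.31 in ex-iTreg minus nTreg, between -0.17 and 0.32 in ex-iTreg minus iTreg and between -0.27 and 0.23 in iTreg minus nTreg. A p that misses the threshold with 2 pools per group does not show equal levels. The 57 genes under the filter include 12 of the 18 Slc6 genes, 11 of the 21 Slc22 genes, 9 of the 15 Slc7 genes, 7 of the 11 Slc5 genes and 6 of the 13 Slc16 genes. Many of these are known from kidney, gut or brain, such as the sodium-glucose carrier Slc5a1 and the transmitter carriers Slc6a3, Slc6a4 and Slc6a11. The highest group mean among them was 5.41, in the Slc6 family. Above the filter level in all 6 arrays were 43 of the 114 genes.

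Other genes of the same pathways were read from 8 lists, which held 94 tested genes. In ex-iTreg minus nTreg 22 rose and 23 fell, in ex-iTreg minus iTreg 16 rose and 27 fell, and in iTreg minus nTreg 21 rose and 17 fell. For all tested genes 18.4% rose and 19% fell in ex-iTreg minus nTreg, 15.6% rose and 21% fell in ex-iTreg minus iTreg, and 16.4% rose and 12.7% fell in iTreg minus nTreg.

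Of 27 tested genes of amino acid sensing and mTORC1, 4 rose and 6 fell in ex-iTreg minus nTreg, 4 rose and 7 fell in ex-iTreg minus iTreg, and 2 rose and 5 fell in iTreg minus nTreg. The median differences were -0.03, -0.03 and 0.02. Rragd, the RagD GTPase that passes the amino acid signal to mTORC1, read 6.36 and 6.14 in ex-iTreg pools, 8.16 and 8.14 in iTreg pools and 9.43 and 9.30 in nTreg pools. The groups were apart in the order ex-iTreg, iTreg, nTreg from low to high, with -3.11 ± 0.09 (adjusted p = 4.68e-06) in ex-iTreg minus nTreg, -1.90 ± 0.09 (adjusted p = 5.75e-05) in ex-iTreg minus iTreg and -1.21 ± 0.09 (adjusted p = 0.000484) in iTreg minus nTreg. Sesn1, a leucine-sensing inhibitor of mTORC1, read 9.93 and 9.84 in ex-iTreg pools, 11.24 and 11.23 in iTreg pools and 11.47 and 11.47 in nTreg pools. It fell by 1.58 ± 0.07 against nTreg (adjusted p = 1.52e-05) and by 1.36 ± 0.07 against iTreg (adjusted p = 5.36e-05). Castor2, a relative of the arginine sensor Castor1, fell by 1.08 ± 0.15 in ex-iTreg pools against nTreg pools (adjusted p = 0.00218), with levels of 7.30 and 7.20 in ex-iTreg pools, 7.75 and 8.02 in iTreg pools and 8.53 and 8.13 in nTreg pools. Sesn3, another sestrin, went the other way, with 0.56 ± 0.06 (adjusted p = 0.000995) in ex-iTreg minus nTreg and 0.45 ± 0.06 (adjusted p = 0.00293) in ex-iTreg minus iTreg.

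Among 15 tested genes of the amino acid starvation response, 4 rose and 4 fell in ex-iTreg minus nTreg, 3 rose and 4 fell in ex-iTreg minus iTreg, and 5 rose and 4 fell in iTreg minus nTreg. Wars, the tryptophanyl-tRNA synthetase, which interferon also induces, fell by 0.60 ± 0.07 against nTreg (adjusted p = 0.00107) and by 0.75 ± 0.07 against iTreg (adjusted p = 0.00058). Its levels were 7.80 and 7.77 in ex-iTreg pools, 8.60 and 8.48 in iTreg pools and 8.39 and 8.38 in nTreg pools, lowest in both ex-iTreg pools. Asns, asparagine synthetase, had 8.01 and 7.88 in ex-iTreg pools, 7.78 and 7.75 in iTreg pools and 8.48 and 8.29 in nTreg pools, and fell in iTreg minus nTreg by 0.62 ± 0.09 (adjusted p = 0.00398).

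In the list of 12 tested genes of glucose uptake and trapping, 3 rose and 3 fell in ex-iTreg minus nTreg, 2 rose and 4 fell in ex-iTreg minus iTreg, and 3 rose and 1 fell in iTreg minus nTreg. Tbc1d4, a GTPase-activating protein that restrains the surface delivery of the glucose carrier GLUT4, read 10.76 and 10.83 in ex-iTreg pools, 8.15 and 8.07 in iTreg pools and 8.97 and 8.84 in nTreg pools. The ex-iTreg pools were highest and the iTreg pools lowest. The difference was 1.89 ± 0.08 (adjusted p = 1.47e-05) in ex-iTreg minus nTreg, 2.68 ± 0.08 (adjusted p = 9.49e-06) in ex-iTreg minus iTreg and -0.80 ± 0.08 (adjusted p = 0.0011) in iTreg minus nTreg. Hk2, the hexokinase that traps glucose in activated cells, read 7.77 and 7.53 in ex-iTreg pools, 6.99 and 6.85 in iTreg pools and 6.92 and 6.92 in nTreg pools, and rose by 0.73 ± 0.10 (adjusted p = 0.00195) over nTreg and 0.73 ± 0.10 (adjusted p = 0.00237) over iTreg. Arrdc4, an arrestin-domain protein that lowers glucose uptake, fell by 0.93 ± 0.09 against nTreg (adjusted p = 0.000429) and by 0.78 ± 0.09 against iTreg (adjusted p = 0.00116).

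Of 8 tested genes of lactate and pyruvate handling, 4 rose and 1 fell in ex-iTreg minus nTreg, 1 rose and 3 fell in ex-iTreg minus iTreg, and 4 rose and 2 fell in iTreg minus nTreg. Emb, embigin, a chaperone of the Slc16 carriers, read 12.58 and 12.58 in ex-iTreg pools, 11.59 and 11.55 in iTreg pools and 11.87 and 11.90 in nTreg pools. Both ex-iTreg pools were highest, by 0.69 ± 0.06 (adjusted p = 0.000352) over nTreg and 1.01 ± 0.06 (adjusted p = 0.000128) over iTreg. Pdk1, which switches off pyruvate dehydrogenase, read 7.89 and 7.97 in ex-iTreg pools, 8.15 and 8.10 in iTreg pools and 6.64 and 6.64 in nTreg pools. It was higher in both populations of induced origin, by 1.29 ± 0.06 (adjusted p = 3.28e-05) in ex-iTreg minus nTreg and 1.49 ± 0.06 (adjusted p = 9.15e-05) in iTreg minus nTreg. Ldhb, the lactate dehydrogenase subunit that favours pyruvate, read 7.44 and 7.34 in ex-iTreg pools, 7.98 and 7.97 in iTreg pools and 8.84 and 8.80 in nTreg pools. It was lowest in ex-iTreg and highest in nTreg pools, with -1.43 ± 0.07 (adjusted p = 2.47e-05) in ex-iTreg minus nTreg, -0.84 ± 0.07 (adjusted p = 0.000531) in iTreg minus nTreg and -0.59 ± 0.07 (adjusted p = 0.00124) in ex-iTreg minus iTreg, the last being -0.24 (adjusted p = 0.0699) after rescaling to the T cell markers.

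**Figure D4:**
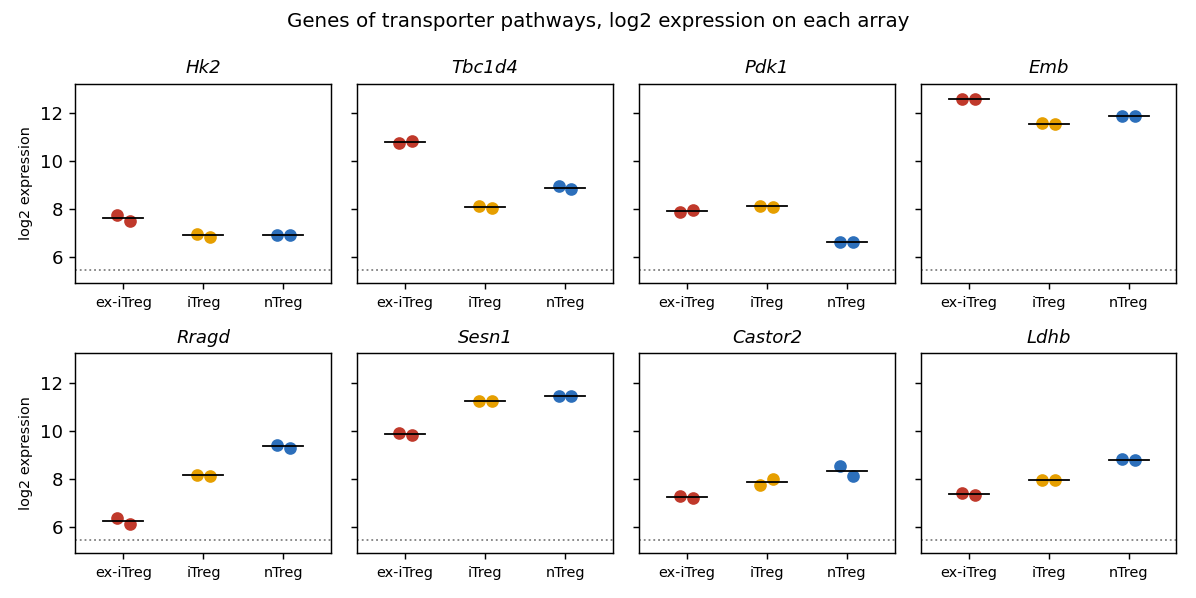
Log2 levels of 8 genes of amino acid sensing, glucose trapping and lactate handling on each array. Points are single arrays, black bars are group means of 2 arrays, and the dotted line marks the filter level of 5.48. Rragd, Sesn1 and Ldhb are lowest in ex-iTreg pools, Tbc1d4, Hk2 and Emb are highest there, and Pdk1 is lowest in nTreg pools.

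The last 4 lists covered amino acid and polyamine enzymes, carnitine and glutathione. Of 9 tested enzymes of glutamine, proline and branched-chain amino acids, 1 rose and 3 fell in ex-iTreg minus nTreg, 1 rose and 3 fell in ex-iTreg minus iTreg, and 1 rose and 1 fell in iTreg minus nTreg. Got1, the cytosolic aspartate aminotransferase, read 10.49 and 10.51 in ex-iTreg pools, 10.40 and 10.25 in iTreg pools and 11.07 and 11.20 in nTreg pools, with nTreg highest, and fell in ex-iTreg minus nTreg by 0.64 ± 0.08 (adjusted p = 0.00163). Of 5 tested arginine, polyamine and tryptophan enzymes, 1 rose and 2 fell in ex-iTreg minus nTreg, 1 rose and 1 fell in ex-iTreg minus iTreg, and 1 rose and 3 fell in iTreg minus nTreg. Srm, spermidine synthase, read 8.77 and 8.68 in ex-iTreg pools, 8.73 and 8.70 in iTreg pools and 7.89 and 7.60 in nTreg pools, and rose in ex-iTreg minus nTreg by 0.98 ± 0.10 (adjusted p = 0.000718) and in iTreg minus nTreg by 0.97 ± 0.10 (adjusted p = 0.00155). Odc1, which makes putrescine from ornithine, was lowest in iTreg pools, at 12.26 and 12.30 in ex-iTreg pools, 11.70 and 11.67 in iTreg pools and 12.47 and 12.44 in nTreg pools, with 0.60 ± 0.06 (adjusted p = 0.000849) in ex-iTreg minus iTreg. Of 9 tested genes of carnitine use, 2 rose and 3 fell in ex-iTreg minus nTreg, 2 rose and 2 fell in ex-iTreg minus iTreg, and 1 rose and 0 fell in iTreg minus nTreg. Cpt1a, which loads fatty acids onto carnitine for mitochondrial oxidation, read 9.01 and 9.20 in ex-iTreg pools, 9.40 and 9.35 in iTreg pools and 9.52 and 9.79 in nTreg pools, and its call of -0.55 ± 0.11 (adjusted p = 0.00982) in ex-iTreg minus nTreg was lost without ex-iTreg pool 1 (adjusted p = 0.0647). Of 9 tested genes of glutathione and cystine use, 3 rose and 1 fell in ex-iTreg minus nTreg, 2 rose and 3 fell in ex-iTreg minus iTreg, and 4 rose and 1 fell in iTreg minus nTreg. Nfe2l2, the transcription factor of the oxidant response, read 8.31 and 8.25 in ex-iTreg pools, 8.08 and 8.11 in iTreg pools and 7.71 and 7.71 in nTreg pools, and rose in ex-iTreg minus nTreg by 0.57 ± 0.06 (adjusted p = 0.00086).

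Upstream windows were found for 86 of the 114 transporter genes and for 19 of the 26 called ones. Among those 19 genes, CACGTG stood in a window of 3 (Slc16a1, Slc22a4 and Slc43a1), TGANTCA of 3 (Slc2a9, Slc38a10 and Slc7a1), TGTGGT of 3 (Slc16a4, Slc22a4 and Slc3a2), AGGTCA of 2 (Slc2a9 and Slc7a7), TGATGNAA of 1 (Slc7a7) and TGTTTAC of 0. A gene with several windows was counted when any of them matched. Over all windows the shares were 6.02% for CACGTG, 6.75% for TGANTCA, 14% for TGTGGT, 14% for AGGTCA, 3.45% for TGATGNAA and 3.17% for TGTTTAC. These shares count each window once, so they are not the same measure as the counts of genes.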

How the data were processed

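Expression was measured on 6 arrays, 2 replicate pools for each of ex-iTreg, iTreg and nTreg cells. Per the submitters' processing notes, the authors summarised the arrays with RMA, and the deposited table holds a log2 level for each probe set on each array. The software version is not given in the sources used here. RMA corrects background and equalizes the array distributions, so a shift of all genes in 1 group cannot be seen. Probe sets were named from the platform annotation, and 34945 of 45037 non-control probe sets had 1 symbol.

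The filter level was 5.48, which is the median of the whole table, and 23484 probe sets (11015 genes) that exceeded it on at least 2 arrays were tested. limma 3.58.1 in R 4.3.3 was fitted to all 6 arrays with 1 mean per group (3 residual and 3.37 prior degrees of freedom), with Benjamini-Hochberg adjustment over every tested probe set. The fit was tested on simulated data. An exact test of 2 pools against 2 cannot go below a two-sided p of 0.33, so calls rest on the pooled spread. Each family gene past the test and 2-fold, and a list fixed by name, is described with its arrays; other called genes are given as well. The transporter genes, the pathway and marker lists and these rules were chosen with earlier results of these data known. Alternatives were other filters, moderation with a trend, rescaling to T cell markers (and, added after seeing the data, without Thy1), the mean of a gene's probe sets, a replicate block and leaving out each array. Array number limits the precision.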

Additional observations from a re-analysis of the deposited data

How the results depend on the processing

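Counts of transporter genes called moved with the size threshold, the scale, the moderation, the probe set rule and single arrays. With a 2-fold threshold added, 1 rose and 3 fell in ex-iTreg minus nTreg, 1 rose and 2 fell in ex-iTreg minus iTreg, and 0 rose and 1 fell in iTreg minus nTreg. With arrays rescaled to T cell markers, 39 rose and 5 fell in ex-iTreg minus iTreg, 15 fell in iTreg minus nTreg, and the ex-iTreg minus iTreg difference of Slc2a9 turned to 0.081 and that of Slc38a6 to 0.13. Without Thy1 among these markers, an alternative chosen after seeing the data, 14 rose and 8 fell in ex-iTreg minus iTreg and 5 rose and 8 fell in iTreg minus nTreg. With the mean of all probe sets of a gene, 7 rose in ex-iTreg minus nTreg and Slc38a10 turned to -0.013 in ex-iTreg minus iTreg. With an intensity trend and robust moderation, 10 rose in iTreg minus nTreg. Leaving out 1 array gave between 6 and 10 genes higher and between 6 and 10 lower in ex-iTreg minus iTreg, a fit with fewer arrays. Calls held under every left-out array for 15 of 21 genes in ex-iTreg minus nTreg, 11 of 20 in ex-iTreg minus iTreg and 9 of 12 in iTreg minus nTreg, and under every alternative run, the fold threshold aside, for 10, 9 and 7. A gene left untested by an alternative counts as not held: Slc7a7, Slc16a4, Slc16a5 and Slc16a10 did not pass the filter as the mean of their probe sets, nor Slc22a4 the stricter filter. The cause of these changes was not tested. Pools of different groups share only their number: deviations of same-numbered pools correlated at -0.088 (ex-iTreg and nTreg), -0.04 (ex-iTreg and iTreg) and -0.00687 (iTreg and nTreg). A fit with the replicate block called 10 higher and 9 lower in ex-iTreg minus nTreg, 8 and 9 in ex-iTreg minus iTreg, and 7 and 6 in iTreg minus nTreg. Levels near 5.48 and 2 pools per group limit what can be detected.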
